A study of Mus musculus with 6 samples.

Results

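Mitochondrial ribosomal proteins are encoded in the nucleus, made in the cytosol and imported into mitochondria, where they assemble with mitochondrial ribosomal RNA into a ribosome that translates a small set of messenger RNAs for subunits of the respiratory chain and of ATP synthase. The large subunit (genes named Mrpl) holds the peptidyl transferase centre and the exit tunnel, and the small subunit (genes named Mrps) reads the messenger RNA. Some of these proteins descend from bacterial ribosomal proteins and others are found only in mitochondrial ribosomes. Members were all array probes with a gene symbol that starts with Mrpl or Mrps followed by a digit: 72 probes for 72 genes, 47 of them Mrpl and 25 Mrps, among 21766 probes in all. The choice used names and no measured value.

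RNA came from single cerebral cortices of mouse embryos at stage E12.5. Peg1 mutants, 6 in number, had inherited from the father a LacZ-targeted allele of the imprinted gene Mest (also called Peg1) that lacks exons 3 to 8, and the mother was wild type. The comparison cortices were wild type, and the sources used here name neither strain nor sex. Each mutant (1, 3, 4, 5, 6 and 7) was hybridised against 1 of 3 wild-type cortices on a two-colour array of its own, with mutants 3, 5 and 6 in Cy5 and mutants 1, 4 and 7 in Cy3. The design text names wild types 2, 8 and 9, whereas the label of the array of mutant 3 reads WT1, and this cortex was taken as wild type 2. The mutation came through the germ line, so it was carried by the whole embryo and not by the cortex alone.

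All values compare mutant with wild type as a log2 ratio, set so that each array's median probe is at 0. A ratio of 2 dyes gives no level of a transcript, so which mitochondrial ribosomal proteins are most abundant could not be asked, and the cortical identity of the tissue could not be checked from levels. The 8 cortical marker genes with a tested probe, among them Pax6, Tbr1 and Emx2, averaged -0.019 ± 0.071 (SD, n = 6 arrays). Mest lay at -1.59 in the fit (limma adjusted p = 0.60) and below 0 on 6 of 6 arrays, and the direction of the deposited ratio was itself read from this gene. In dissected tissue, fewer cells of a type and less RNA per cell cannot be told apart. The small number of arrays limits how precisely any ratio is known.

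The ribosome's genes were well covered. Of the 72 members 57 had a value on all 6 arrays, against 62.2% of all probes, and 69 (against 80.3% of all probes) entered the tests, for which 4 or more arrays, with 2 or more of each dye orientation, had to hold a value. The members left out were Mrpl20 and Mrpl44 of the large subunit and Mrps34 of the small. Their single values were far apart. Mrpl20, with a bacterial counterpart, had -4.74 in mutant 5 and 3.32 in mutant 1. Mrpl44, which carries a ribonuclease III-like fold, had 1.15, -0.81, -0.41 and 0.043 in mutants 6, 1, 4 and 7. Mrps34, a protein found only in mitochondrial ribosomes, had 1.96, -0.56 and -0.40 in mutants 5, 6 and 7.

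Upstream sequence is shown first for 4 large-subunit genes, those with the smallest p-values among genes that kept 1 sign on every array and hold a short motif in the 250 bases before their start, because mitochondrial ribosomal protein promoters are known for sites of nuclear respiratory factor 1 (Nrf1) and of Ets-family factors such as GA-binding protein. The motifs searched on both strands were GCGCA, any 1 base and GCGC for Nrf1, and CCGGAAG for the Ets family. They do not overlap each other in the stretches printed. Capitals mark the motif, in stretches of 100 bases from the RefSeq promoter table of build GRCm38.p6, read 5′ to 3′ on the gene's strand.
Mrpl39 (chr16:84735315-84735414, minus strand): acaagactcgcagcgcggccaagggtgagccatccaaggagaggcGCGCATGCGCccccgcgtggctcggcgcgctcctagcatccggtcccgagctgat
Mrpl57 (chr14:57826137-57826236, plus strand): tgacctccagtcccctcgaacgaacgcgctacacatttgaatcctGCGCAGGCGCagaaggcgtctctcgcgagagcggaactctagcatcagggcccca
Mrpl52 (chr14:54426809-54426908, plus strand): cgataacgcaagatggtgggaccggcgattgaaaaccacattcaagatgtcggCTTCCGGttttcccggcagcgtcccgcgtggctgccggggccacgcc
Mrpl58 (chr11:115403652-115403751, plus strand): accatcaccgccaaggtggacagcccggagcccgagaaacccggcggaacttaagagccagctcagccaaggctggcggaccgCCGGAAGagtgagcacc

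Mrpl30 (Nrf1 motif) and Mrpl48 (Ets motif) also kept 1 sign and are not printed. The motif of Mrpl39 reads as an Nrf1 match on both strands and ends 115 bases before the start, and that of Mrpl57 ends 47 bases before it. The Ets motif of Mrpl52 lies on the opposite strand and ends 40 bases before the start, and that of Mrpl58 ends 10 bases before it. Promoters were listed for 64 of the 72 members. The Nrf1 motif was in 10 of these 64 (15.6%), 9 of 41 large-subunit and 1 of 23 small-subunit genes, against 4.23% of all 27025 genes with a promoter. The Ets motif was in 15 of 64 (23.4%), 11 large-subunit and 4 small-subunit genes, against 7.83% of all genes, and 1 member held both. A match describes the letters in this window and is not a measured binding site.

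Most mitochondrial ribosomal protein transcripts lay slightly below the median probe in the mutants, by little and without any call. Of the 69 tested members 50 (72.5%) had a fitted ratio below 0, against 48.7% of all 17476 tested probes, and their median was -0.11 against 0.0069 for all tested probes. None passed an adjusted p of 0.05 (limma, Benjamini-Hochberg, smallest adjusted p = 0.90), and the background was 0% of all probes, Mest among them, so a missing call says little here. At an unadjusted p under 0.05 there were 7 members, described further on. Single values were mostly small: 329 of the 411 member values (80.0%) lay within 0.5 of 0, and 28 members had every value within that range. These counts include the untested members. Over all probes, tested ones only, the share of values was 71.6%.

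**Figure D1:**
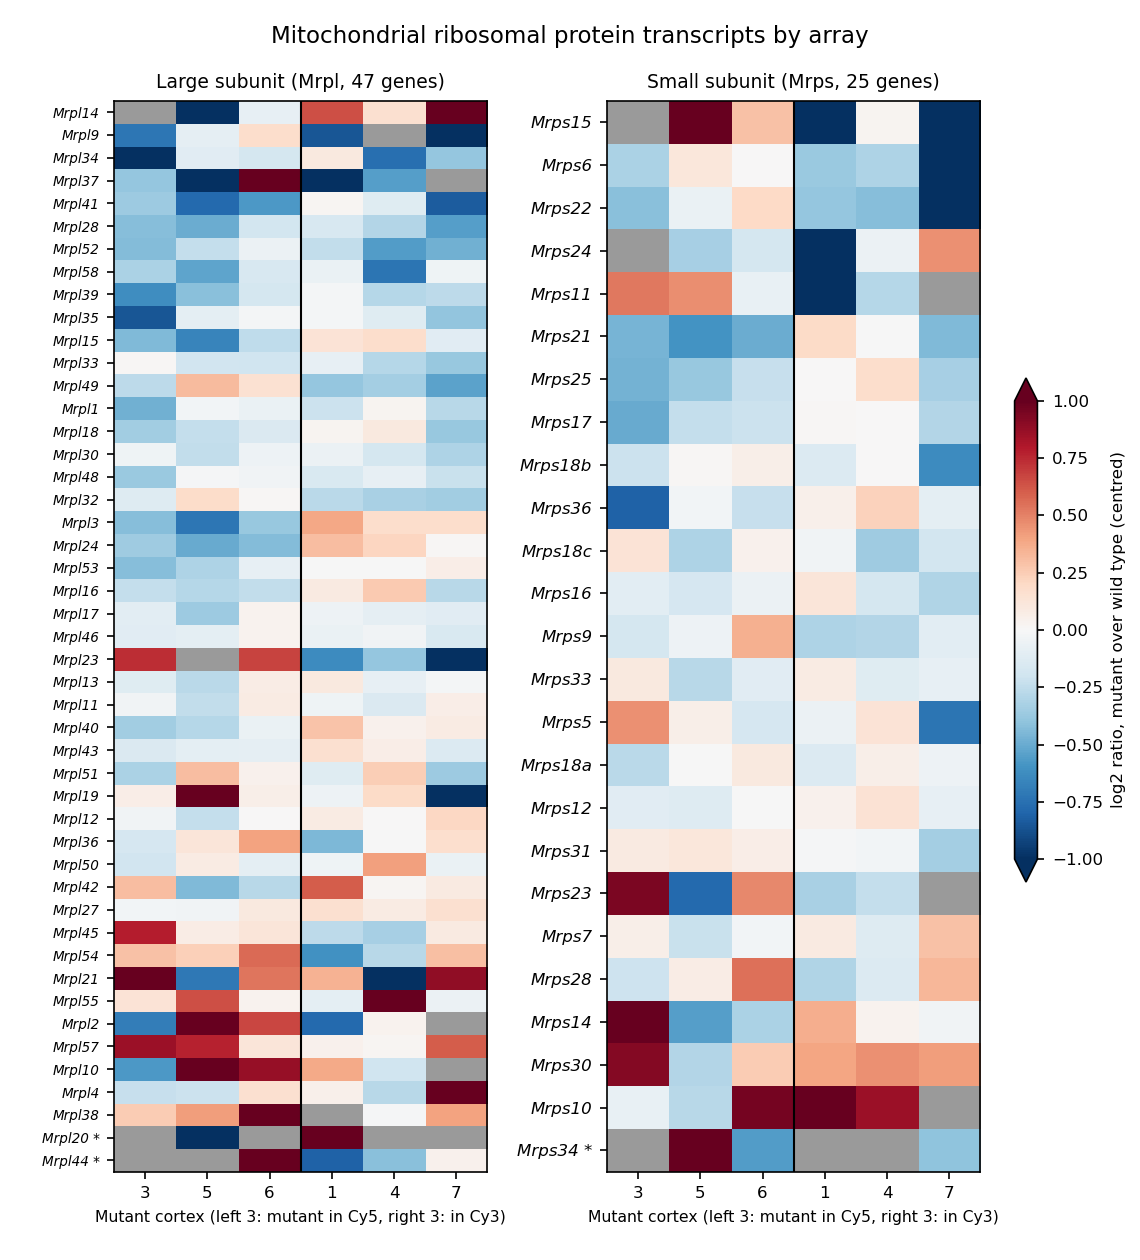
Centred log2 ratio of mutant over wild type for each of the 72 members (rows, ordered by fitted ratio) on each of the 6 arrays (columns, named by mutant), with colours ending at -1 and 1, grey for no value and an asterisk for the 3 untested members. Pale blue prevails in both panels, and the saturated cells belong to few genes, as 21 members have any value beyond 1 in size.

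The members' low position was relative to other probes. With arrays left uncentred, 14 of 69 members lay below 0, and with Gapdh control spots set to 0 on each array 15 did, where the median of all tested probes lay at 0.26 in both settings. The median member minus the median of all probes was -0.12 in each of these 3 settings, and 51, 50 and 51 of the 69 members lay below that median with arrays centred on their medians, uncentred and centred on Gapdh. Centring moves every probe of an array by the same amount. This agreement was therefore nearly fixed beforehand and does not test the low position. The same difference was -0.074 without mutant 7, -0.081 without mutant 5 and -0.16 without mutant 6. By array, the share of members below 0 ran from 49.3% in mutant 6 to 71.2% in mutant 3, where 47.9% to 50.8% of all tested probes did.

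**Figure D2:**
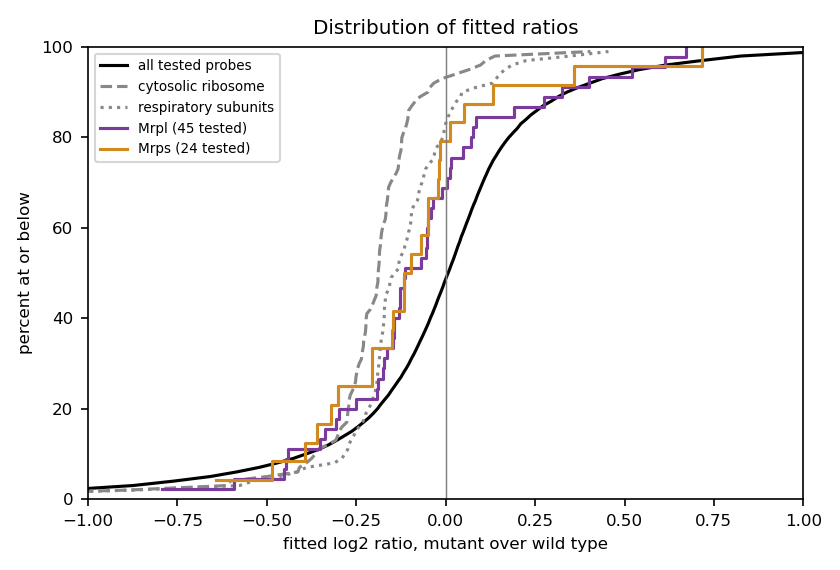
Cumulative distribution of the fitted log2 ratio (x axis, drawn from -1 to 1) for 45 Mrpl and 24 Mrps genes, for probes of the cytosolic ribosome and of respiratory subunits, and for all 17476 tested probes. Both Mrpl and Mrps lie left of all probes around the middle, with medians of -0.11 and -0.11, and to the right of the cytosolic ribosome.

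Large and small subunits differed by less than the spread between arrays. The 45 tested Mrpl genes had means over genes of -0.17, -0.14 and 0.12 in mutants 3, 5 and 6 and of -0.065, -0.096 and -0.0046 in mutants 1, 4 and 7, or -0.060 ± 0.11 (SD, n = 6 arrays). The 24 tested Mrps genes had 0.017, -0.11 and 0.053 in mutants 3, 5 and 6 and -0.24, -0.018 and -0.35 in mutants 1, 4 and 7, or -0.11 ± 0.16 (SD, n = 6 arrays). Both means were at their highest in mutant 6, whereas the lowest Mrpl mean was that of mutant 3 and the lowest Mrps mean that of mutant 7. The Mrpl median over genes in mutant 6 was 0. Over genes with 6 values the Mrpl mean was -0.033 in mutant 6 and highest in mutant 1, at -0.015.

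The difference of Mrpl minus Mrps was -0.19, -0.025 and 0.069 in mutants 3, 5 and 6 and 0.17, -0.078 and 0.35 in mutants 1, 4 and 7. Over the 6 arrays its mean was 0.049 with an SD of 0.19, and it fell on each side of 0 on 3 arrays. Its sign depended on single genes and on 1 array. The medians over genes gave -0.028 ± 0.064, opposite in sign to the means, and without mutant 7 the difference of means was -0.010. By wild-type cortex it was -0.0087 for wild type 2, -0.052 for wild type 8 and 0.21 for wild type 9. As these are scores over chosen members, no p-value was computed.

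**Figure D3:**
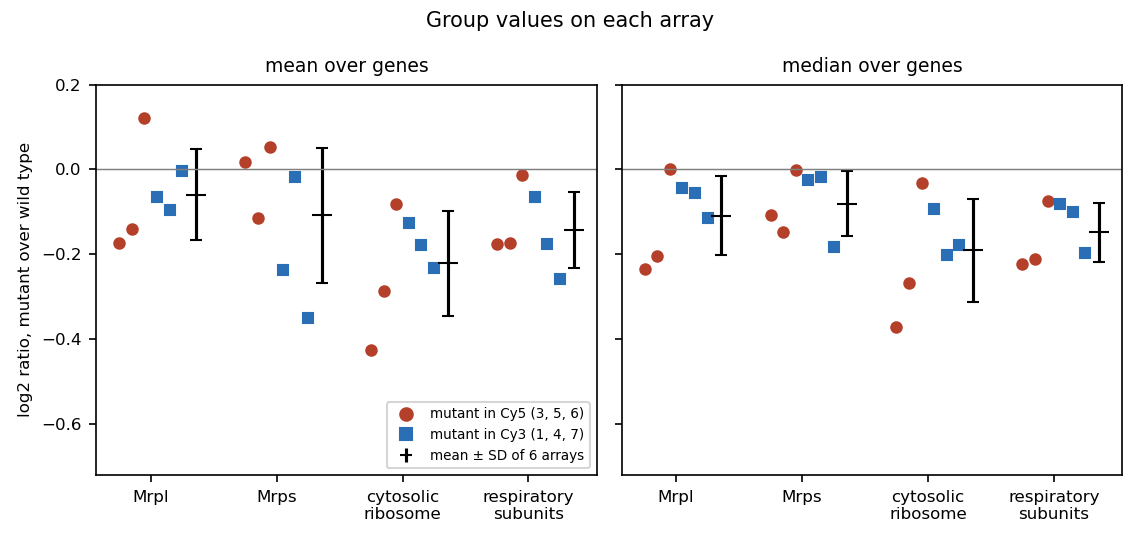
Mean (left) and median (right) over genes of the log2 ratio on each array for Mrpl, Mrps, the cytosolic ribosome and respiratory subunits. Circles are arrays with the mutant in Cy5, squares those with the mutant in Cy3, and bars the mean ± SD of 6 arrays. The Mrpl and Mrps bars overlap in both panels. With arrays centred on their medians, the cytosolic ribosome and the respiratory subunits lie below 0 on all 6 in both panels. So does Mrps in the right panel.

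By count, 31 of 45 Mrpl genes (68.9%) and 19 of 24 Mrps genes (79.2%) had a fitted ratio below 0. Symbols do not always give the place of a protein in the ribosome. Mrps30 and Mrps18a are built into the large subunit, and Mrps36 is now known as a component of the 2-oxoglutarate dehydrogenase complex. Mrps30 had 0.92, -0.29 and 0.26 in mutants 3, 5 and 6 and 0.39, 0.46 and 0.42 in mutants 1, 4 and 7. It lay above 0 in all mutants but mutant 5, and its fitted ratio was 0.36 (standard error 0.19), or 0.20 without mutant 3. Without centring it was 0.61, and with Gapdh spots at 0 it was 0.62.

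Mrps18a stayed near 0, between -0.27 in mutant 3 and 0.10 in mutant 6. Mrps36 was lowest in mutant 3, at -0.81, and lay between -0.23 and 0.23 on the other arrays. With genes placed by structure, the large subunit averaged -0.050 ± 0.10 and the small -0.13 ± 0.19 (SD, n = 6 arrays). Their difference was 0.083 ± 0.22.

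Members with and without a bacterial counterpart lay mostly below 0 in both subunits. In the large subunit by structure, 20 of 28 tested genes with a counterpart lay below 0, with a median of -0.12, and 12 of 19 without one, with a median of -0.048. In the small subunit the counts were 12 of 16 (median -0.12) and 5 of 5 (median -0.069). The groups are small and were not tested against each other.

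Large-subunit genes held all 8 members with 1 sign on every array with a value: 7 below 0 (10.1% of tested members, against 3.12% of all tested probes) and 1 above (1.45%, against 2.44%). Mrpl28, a counterpart of a bacterial large-subunit protein, had -0.43, -0.50 and -0.18 in mutants 3, 5 and 6 and -0.16, -0.30 and -0.55 in mutants 1, 4 and 7. With arrays centred on their medians every mutant was lower, and both dye orientations covered the same range. Signs by array, for this gene and for the other 1-sign members, were taken with this centring only. They depend on it, as the uncentred median of all tested probes lay at 0.79 in mutant 5 and 0.59 in mutant 4. The fitted ratio was -0.35 (standard error 0.11, 95% confidence interval -0.62 to -0.086), a level 0.78 times that of wild type (limma, adjusted p = 0.90, lower on 6 of 6 arrays). It was -0.099 without centring and -0.091 with Gapdh control spots at 0.

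Mrpl52, found only in mitochondrial ribosomes and shown above with an Ets motif, had -0.44, -0.23 and -0.058 in mutants 3, 5 and 6 and -0.25, -0.56 and -0.48 in mutants 1, 4 and 7. Mutant 6 was closest to 0 and mutant 4 farthest. Its fitted ratio was -0.34 (standard error 0.10, limma adjusted p = 0.90), but -0.084 without centring and -0.076 with Gapdh spots at 0.

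Mrpl39, which is related in sequence to threonyl-tRNA synthetase and has the Nrf1 motif printed above, had -0.62, -0.42 and -0.18 in mutants 3, 5 and 6 and -0.020, -0.28 and -0.26 in mutants 1, 4 and 7. Here mutant 3 was lowest and mutant 1 almost at 0. The fitted ratio was -0.30 (standard error 0.11, limma adjusted p = 0.90). Without centring it was -0.045, and with Gapdh spots at 0 it was -0.036.

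Mrpl58 (Ict1), a peptidyl-tRNA hydrolase of the release factor family that became part of the large subunit, had -0.31, -0.53 and -0.16 in mutants 3, 5 and 6 and -0.069, -0.73 and -0.041 in mutants 1, 4 and 7. Mutants 4 and 5, which share wild type 8, were the lowest. The fitted ratio was -0.31 (standard error 0.13, limma adjusted p = 0.90). It was -0.19 without mutant 4, -0.053 without centring and -0.045 with Gapdh spots at 0. The other members below 0 on every array were Mrpl30, Mrpl35 and Mrpl48, with fitted ratios of -0.15, -0.25 and -0.15; the last 2 were named after their values were seen. Mrpl30 turned to 0.11 both without centring and with Gapdh spots at 0.

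Mrpl57, a small large-subunit protein found only in mitochondria, was the member above 0 on all arrays. It had 0.85, 0.77 and 0.12 in mutants 3, 5 and 6 and 0.040, 0.020 and 0.60 in mutants 1, 4 and 7. Mutants 3, 5 and 7 were high and the others near 0. The fitted ratio was 0.40 (standard error 0.18, limma adjusted p = 0.90), and its interval from -0.051 to 0.85 holds 0. It was 0.25 without mutant 7, 0.65 without centring and 0.66 with Gapdh spots at 0.

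The 7 members at an unadjusted p under 0.05 (10.1%, where the background was 3.93% of all tested probes) were 6 lower (background 2.33%) and 1 higher (background 1.6%). They were Mrpl28, Mrpl52, Mrpl39, Mrpl41, Mrpl9 and Mrps21 below 0 and Mrps10 above; the last 4 of these names were picked after their values were seen. The count was 2 without mutant 3 and 3 without mutant 7, 1 with arrays uncentred and 4 with arrays centred on Gapdh spots. In both of the last settings no member was among the lower ones. The background changed too: 2.5% of all tested probes without mutant 3, 2.26% without mutant 7, 1.28% uncentred and 15.8% centred on Gapdh. Mrps10, the counterpart of a bacterial small-subunit protein, had -0.071, -0.28 and 0.96 in mutants 3, 5 and 6 and 1.42 and 0.85 in mutants 1 and 4. Its values lay on both sides of 0 and it had none in mutant 7, so the fitted ratio of 0.72 rests on 3 high arrays.

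Mrps21, also with a bacterial counterpart, had -0.47, -0.60 and -0.49 in mutants 3, 5 and 6 and 0.19, -0.0050 and -0.44 in mutants 1, 4 and 7. All Cy5 values were below all Cy3 values. Mrpl41, found only in mitochondria, ranged from -0.83 in mutant 7 to 0.022 in mutant 1. Mrpl9, with a counterpart and no value in mutant 4, ranged from -1.12 in mutant 7 to 0.17 in mutant 6. All Cy5 values of Mrpl9 were above its Cy3 values.

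**Figure D4:**
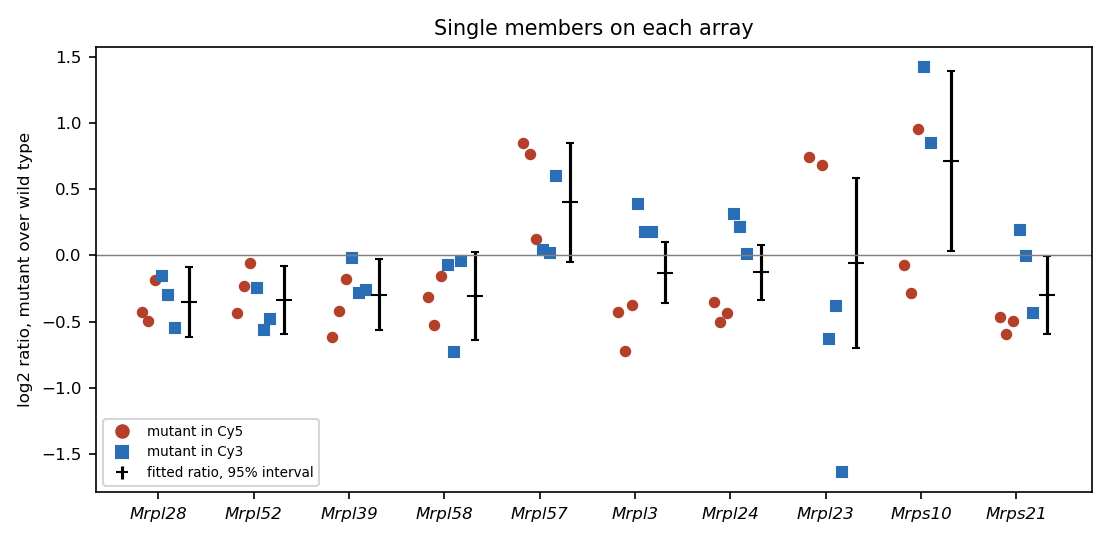
Centred log2 ratios on single arrays for 10 members, circles with the mutant in Cy5 and squares in Cy3, with the fitted ratio and its 95% confidence interval. Mrpl28, Mrpl52, Mrpl39 and Mrpl58 stay below 0 on all arrays, Mrpl57 stays above, and Mrpl3, Mrpl24 and Mrpl23 part by dye, with arrays centred on their medians.

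Some members differed by dye orientation, though no larger a share of them than of all probes. The dye coefficient, which is the ratio with the mutant in Cy5 minus that with the mutant in Cy3, passed an adjusted p of 0.05 for 0 members and for 0.269% of all tested probes (limma, smallest adjusted p among members 0.10). At an unadjusted p under 0.05 there were 8 members (11.6%), against 20% of all tested probes. Of these 4 were lower with the mutant in Cy5 (background 10.7%) and 4 higher (background 9.36%). The coefficient was below 0 for 36 of 69 members, against 46.1% of all tested probes. All Cy5 values lay below all Cy3 values for 8 members (11.6%, against 15.3% of all probes) and above them for 7 (10.1%, against 14.5%).

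Mrpl3, a counterpart of a protein near the peptidyl transferase centre, showed this most clearly, with -0.42, -0.72 and -0.38 in mutants 3, 5 and 6 and 0.39, 0.18 and 0.17 in mutants 1, 4 and 7. Its sign followed the dye on every array. The dye coefficient was -0.75 (standard error 0.14), whereas the fitted genotype ratio was -0.13 (standard error 0.091).

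Mrpl24, which lies at the exit tunnel, had -0.35, -0.50 and -0.43 in mutants 3, 5 and 6 and 0.31, 0.21 and 0.011 in mutants 1, 4 and 7. The sign again changed with the dye, with a coefficient of -0.61 (standard error 0.13). Mrpl23, another protein of the exit tunnel, whose gene lies beside the imprinted Igf2 and H19 cluster, went the opposite way. It had 0.74 and 0.68 in mutants 3 and 6 and -0.63, -0.38 and -1.64 in mutants 1, 4 and 7, with a dye coefficient of 1.65 (standard error 0.39) and a fitted genotype ratio of -0.056.

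**Figure D5:**
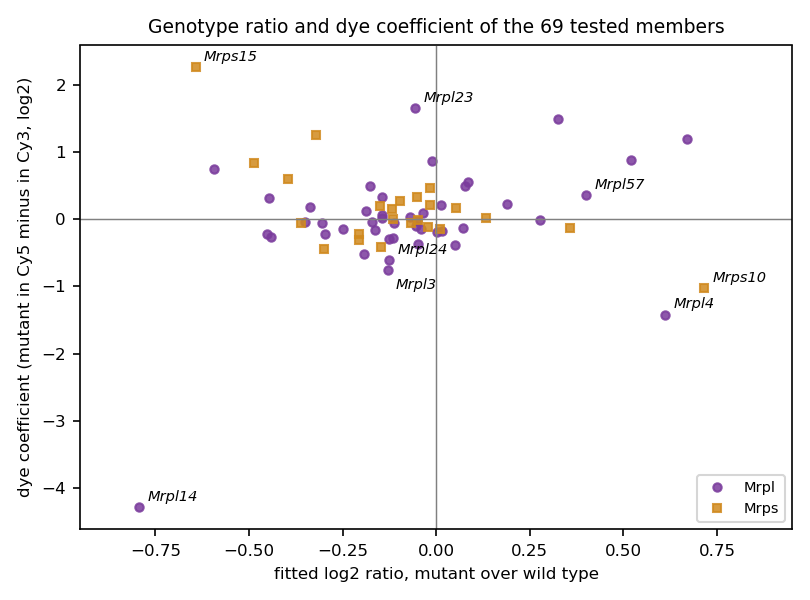
Fitted log2 ratio of mutant over wild type (x axis) against the dye coefficient (y axis, log2) of the 69 tested members, circles for Mrpl and squares for Mrps. Most points lie near the middle, and Mrpl14 at -4.29 and Mrps15 at 2.26 on the y axis are the lowest and the highest.

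Members differed widely in how steady they were. The median SD over arrays was 0.32 for tested members, against 0.41 for all tested probes. Among members with 6 values, Mrpl46, Mrpl27 and Mrpl30 had the narrowest ranges. Mrpl46, found only in mitochondria, stayed between -0.15 and 0.039 with a fitted ratio of -0.069. Mrpl27, a counterpart of a bacterial protein near the peptidyl transferase centre, stayed between -0.039 and 0.16, and its fitted ratio of 0.072 had a 95% confidence interval from -0.11 to 0.25. Mrpl12, which in mammals also binds the mitochondrial RNA polymerase, lay between -0.24 in mutant 5 and 0.21 in mutant 7, with a fitted ratio of 0.0031 and an interval from -0.20 to 0.20.

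In the 3 members with the widest range over 6 values, mutant 7 gave the value farthest from 0. Mrpl4, a counterpart of a bacterial large-subunit protein, had 4.19 in mutant 7 and between -0.28 and 0.16 in the other 5. Mrpl19, also with a counterpart, had 1.14 in mutant 5 and -1.47 in mutant 7, and between -0.048 and 0.19 elsewhere. Mrps6, a small-subunit counterpart, had -2.04 in mutant 7 and between -0.37 and 0.11 elsewhere. Mrpl14 (chosen after its values were seen), with 5 values, ran from -5.62 in mutant 5 to 3.24 in mutant 7. Of the 411 member values 10 were beyond 2 in size, and they came from 8 members.

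The other genes of mitochondrial translation lay on both sides of 0. Of the 3 mitochondrial ribosomal proteins measured under other names, the GTP-binding small-subunit protein Dap3 lay at -0.039, Chchd1 at -0.15 and the pentatricopeptide repeat protein Ptcd3 at 0.13. Of 8 tested translation factors and partners 3 lay below and 5 above 0. The sign of their mean over genes followed the dye. It was 0.23, 0.43 and 0.088 in mutants 3, 5 and 6 and -0.83, -0.42 and -0.24 in mutants 1, 4 and 7. Tsfm (chosen after its values were seen), with a fitted ratio of -1.52, parted likewise. It had 1.10 and 0.64 in mutants 5 and 6 and -6.51, -0.39 and -3.76 in mutants 1, 4 and 7. The initiation factor Mtif2 was below 0 on 6 of 6 arrays, from -0.31 to -0.059, with a fitted ratio of -0.19. Oxa1l, which inserts newly made proteins into the inner membrane, was above 0 on 6 of 6, from 0.11 to 0.74, with 0.31. Lrpprc, which stabilises mitochondrial messenger RNA, lay at 0.34 and below 0 in mutant 7 only.

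Assembly factors split evenly, with 7 of 13 below 0 and a median of -0.0016. Ngrn had 0.19, 0.11 and 0.36 in mutants 3, 5 and 6 and -0.55, -0.60 and -0.66 in mutants 1, 4 and 7, so that its sign followed the dye. The GTPase Eral1 lay at 0.25 and Mettl17 at -0.14. Of 8 mitochondrial tRNA synthetase genes 6 lay below 0 (median -0.13), and the smallest p belonged to Vars2 at -1.26 on 4 arrays, Tars2 at 0.36 and 1 of the 2 Wars2 probes at -0.29. Vars2 parted by dye, with 1.14 and -0.60 in mutants 5 and 6 and -2.04 and -3.52 in mutants 4 and 7. Its dye coefficient was 3.05 (standard error 0.71).

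With arrays centred on their medians, regulators of mitochondrial genes lay on the opposite side of 0 from most of the ribosomal proteins. Their mean over genes was 0.040, 0.034 and 0.038 in mutants 3, 5 and 6, all in Cy5. It was higher, at 0.20, 0.15 and 0.36, in mutants 1, 4 and 7, all in Cy3. Across arrays the mean was 0.14 ± 0.13 (SD, n = 6 arrays), but 0.39 without centring and 0.40 with Gapdh spots at 0. In those 2 settings the Mrpl means (0.19 and 0.20) and Mrps means (0.14 and 0.15) were above 0 as well. Of 10 tested genes 9 had a ratio above 0, with a median of 0.13, and 2 of 10 probes had an unadjusted p under 0.05, against 3.93% of all tested probes. Among the 9 were Esrra (0.039) and Yy1 (0.14), whose signs followed the dye on every array. Nrf1 had 0.22, 0.18 and 0.19 in mutants 3, 5 and 6 and 0.34, 0.30 and 0.19 in mutants 1, 4 and 7. It was above 0 on every array, with a fitted ratio of 0.24 (standard error 0.071, limma adjusted p = 0.90). Gabpa, a subunit of GA-binding protein, lay at 0.34 and below 0 in mutant 3 only. Tfam, which packages mitochondrial DNA, lay at 0.26, with 0.8215 and 0.825 in mutants 5 and 6 and between -0.17 and 0.144 elsewhere. The list also holds genes that act far beyond mitochondria, such as Myc and Yy1.

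Ratios of members with and without a motif in the upstream window overlapped. Of 9 tested members with the Nrf1 motif 6 lay below 0, with a median of -0.14. Of 15 with the Ets motif 14 did, with a median of -0.13, and of 39 with neither 28 did, with a median of -0.069. The ranges ran from -0.59 to 0.40, from -0.45 to 0.072 and from -0.79 to 0.72, and these groups were not tested against each other.

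The most similar gene groups also lay low. Of 65 tested genes of the cytosolic ribosome 62 had a ratio below 0, with a median of -0.19. At an unadjusted p under 0.05 (limma) there were 12 of 72 probes (16.7%), all lower, where the background was 2.33%. Among them Rps20 and Rpl34 lay at -0.36 and -0.35, and 1 probe of Rps18 at -0.27, whereas its other probe, with 5 values, lay at 1.02. Of 74 nuclear genes of respiratory complexes and ATP synthase 61 were below 0, with a median of -0.14, and Cox6b1, Ndufv3 and Atp5e lay at -0.27, 0.44 and -0.29. Means over genes were -0.22 ± 0.12 for the cytosolic ribosome and -0.14 ± 0.089 for respiratory subunits (SD, n = 6 arrays). Both turned positive without centring (0.031 and 0.11) and with Gapdh spots at 0 (0.039 and 0.12). Gapdh control spots, at -0.26 ± 0.18, were below 0 on 6 of 6 arrays, and mutants 3 and 5 were the lowest for these spots, for the cytosolic ribosome and for the Mrpl genes. No spot brightness was used here, and its part in the shared low position was not tested.

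Markers of other cell types were set beside these values. Of 11 red blood cell probes 4 (36.4%) were lower at an unadjusted p under 0.05 (limma), against 2.33% of all tested probes. Of 10 tested red blood cell genes 8 lay below 0, with list means from -0.39 in mutant 1 to -0.028 in mutant 5. Of 6 choroid plexus genes 5 did (-0.43 in mutant 1 to 0.14 in mutant 4), of 9 endothelial genes 4 (-0.31 in mutant 1 to 0.22 in mutant 6), of 7 macrophage genes 3 (-0.16 in mutant 4 to 0.49 in mutant 5) and of 8 mesenchymal genes 5 (-0.43 in mutant 1 to 0.21 in mutant 5). The sign of the endothelial mean followed the dye. It was 0.0058, 0.019 and 0.22 in mutants 3, 5 and 6 and -0.31, -0.23 and -0.18 in mutants 1, 4 and 7. The red blood cell list was lowest in mutants 1 and 7, at -0.39 and -0.30, and so was the Mrps mean, at -0.24 and -0.35. In mutant 3 the red blood cell list was at -0.29 and the Mrps mean at 0.017. The match in mutant 1 held for the mean only. The Mrps median over genes was -0.0245 in mutant 1 and -0.18 in mutant 7, against -0.11 in mutant 3 and -0.15 in mutant 5. Ratios do not show which markers are absent, and the part of these cells in the members' values was not tested.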

How the data were processed

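The deposited values are log2 ratios of 6 two-colour oligonucleotide arrays, which the authors provided as 1 value per probe and array. Trizol was used for RNA, per the labels' protocols. The sources used here give no scanner, background treatment, normalization, scale or direction. Values were taken to be log2(Cy5/Cy3) because they lie on both sides of 0, end at 16.61 (log2 of 100000) and change sign with the dye for Mest. The 590 values at this ceiling and empty entries were treated as missing; none at the ceiling was a member's. The 232 Gapdh control spots were left out of the tests.

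Ratios were turned to mutant over wild type and centred on each array's median. The fit (lmFit and eBayes of limma 3.58.1, R 4.3.3) took probes measured on 4 or more arrays, 2 or more in each orientation, with a genotype intercept, a dye term and the shared wild-type cortex as a random block (duplicateCorrelation, 0.25). P-values were adjusted by Benjamini-Hochberg over 17476 probes. The fit was also run on simulated ratios with known changes. That outcome is not given here and no result rests on it. The labels call each mutant a single cortex, and each wild type serves 2 arrays. Gene names come from the platform annotation through Entrez identifiers, where 72 of 72 members matched GRCm38.p6. Each member has 1 probe.

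Members, lists and tests were chosen with earlier results of these data known. Named by rule were, per subunit and direction, up to 4 genes with the smallest p and 1 sign on every array; 3 each by dye term, widest and narrowest range; members that failed the filter; Mrps30, Mrps18a, Mrps36, Mrpl12 and Mrpl23; Mest and Nrf1; and up to 3 genes of each mitochondrial or ribosomal list. No small-subunit gene kept 1 sign. Group scores have no test. Alternatives covered the block, dye term, centring, normalization, ceiling, filter, moderation, arrays left out and subunit assignment.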

Additional observations from a re-analysis of the deposited data

Results flagged for a closer look

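Among 21 named members and 3 subunit values, 2 members had 1 array whose gap to the nearest other array took up more of the whole range than the 95% critical value of Dixon's test allows, a criterion that chance meets in about 1 of 20 groups. Both members, Mrpl4 and Mrps6, were named for their wide range in these same data. Their count therefore cannot be set against that share. Mrpl20 and Mrps34, also named, hold fewer than 4 values. Mrpl4 had 4.19 in mutant 7, where the other 5 arrays lay between -0.28 and 0.16. Mrps6 had -2.04 in mutant 7, where the other 5 lay between -0.37 and 0.11. Over all 70 members with at least 4 values, 4 met the same criterion.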

How the results depend on the processing

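No alternative called a member for genotype or for dye. The number of members at an unadjusted p under 0.05, 7 as reported, was 1 without centring, 4 with arrays centred on Gapdh control spots, 4 without variance moderation, and 2 to 6 with any 1 array left out (2 without mutant 3, 3 without mutant 7). The share of all tested probes, 3.93% as reported, was 1.28% without centring, 15.8% on Gapdh and 5.16% without moderation. It ran from 2.26% without mutant 7 to 6.23% without mutant 6, and was 2.5% without mutant 3. The large-subunit mean was 0.19 without centring and 0.20 centred on Gapdh, and the small-subunit mean 0.14 and 0.15, where the median of all tested probes rose to 0.26; the cause is that shift of the whole array. With any 1 array left out, the large-subunit mean ran from -0.096 to -0.037, the small-subunit mean from -0.14 to -0.060 and their difference from -0.010 to 0.097. The difference was -0.049 with the mutant in Cy5 only and 0.15 in Cy3 only, and -0.053 over genes with every value within 2 of 0, an alternative chosen after seeing the data. Of 18 named members with a fit, 8 changed sign without centring and 8 centred on Gapdh (in both Mrpl3, Mrpl19, Mrpl23, Mrpl24, Mrpl30, Mrpl46, Mrps18a and Mrps36), 3 without mutant 3, 1 without mutant 6, 4 without mutant 7 and none in the other settings tried for them. No paired analysis was possible because all arrays form 1 group and replicate numbers name mutants; the block is the wild-type cortex. Without that block 8 members had an unadjusted p under 0.05 (6.4% of all tested probes did). With the array of mutant 3 given its own wild type 5 did (3.91% of all tested probes). No array depth or signal over background was used, so dim spots could not be set apart.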
